A study of Mus musculus with 6 samples.

Results

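The replication-dependent histone genes are the 61 rows, of 25078 in the deposited tables, that carry a symbol of the Hist1h, Hist2h, Hist3h or Hist4h series now or carried one in the past. Only 5 rows still use such a symbol, because most rows use the newer names (H1f2, H2ac4, H4c3), and the others were found through the older symbols of the RefSeq gene table. The 61 genes comprised 6 linker histone H1 genes, 15 H2A genes, 17 H2B genes, 10 H3 genes and 13 H4 genes, of which 2 (H2bu1-ps and Hist1h2al) are annotated as pseudogenes. A further 9 genes with such symbols had no row and were not analysed here. On mm10, 51 of the 61 lie on chromosome 13, 6 on chromosome 3, 3 on chromosome 11 and 1 on chromosome 6.

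The cells were Hepa1-6, a mouse hepatoma line derived from the C57/L strain, and all were kept in the same medium. The scr cells (2 libraries, labelled 25-2 and 50-1) carried a lentiviral scramble vector, and the knockdown cells (3 libraries, labelled 25-3, 50-2 and 50-5) carried a lentiviral short hairpin RNA against midnolin (Midn). Both were selected with puromycin and taken through limiting dilution to colonies grown from single cells, whereas the wt library (n = 1) came from cells with no treatment. The labels explain neither the numbers 25 and 50 nor which clone each library came from. The study's list of differing genes leaves out knockdown 50-5, which entered here because its label gives the same treatment. The study names its sequenced knockdown clones as sh1 and sh2, so some of the knockdown libraries may share a clone, and n counts libraries, not clones. Thus p-values measure only the spread between these libraries, and differences between clones cannot be told apart from those between treatments.

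Replication-dependent histone genes supply the histones that package new DNA, and their mRNAs accumulate in S phase and are degraded when DNA synthesis stops. Unlike other mRNAs they mostly end in a short stem-loop in place of a poly(A) tail. Stem-loop binding protein (SLBP) holds that hairpin through processing and translation, and NPAT, a substrate of the kinase CDK2, drives transcription at the histone clusters. These libraries were made by depletion of ribosomal RNA without selection for poly(A), so mRNAs of this kind could be read. In RNA from bulk cells, fewer cells in S phase and less histone mRNA per cell cannot be told apart.

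The hairpin is shown because it is the feature that sets these mRNAs apart, and it was searched in the GENCODE M21 transcripts (GRCm38) as a stem of 6 base pairs that starts with GG and a loop of 4 bases that starts with T. Of the 43 genes with a transcript model reaching at least 40 bases past the stop codon, 41 (95.3%) held it within 200 bases of the stop codon, beginning 22 to 55 bases after it. In all, 94 of 20930 coding genes with such a model (0.449%) held it. H2bc21 and H2bc4 were the 2 histone genes whose models did not hold it there. The stem read GGCTCT in all 28 genes of the H1, H2A, H2B and H3 families with a complete hairpin, and GGCCCT (10 genes) or GGTCCT (2 genes) in the 12 H4 genes. In the following lines the hairpin is in capitals with up to 5 flanking bases, for H1f1, the one gene that differed between knockdown and scr, and for a highly expressed gene of each family. The H1f1 model stops 1 base before the end of the stem.
H1f1: ccaacGGCTCTTTTCAGAGC
H1f2: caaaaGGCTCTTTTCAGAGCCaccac
H2aw: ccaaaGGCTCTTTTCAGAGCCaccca
H2bc12: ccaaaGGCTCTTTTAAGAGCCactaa
H3c6: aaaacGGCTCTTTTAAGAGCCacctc
H4c3: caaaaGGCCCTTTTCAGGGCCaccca

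Near-identical copies limit what a single row can say. The 13 H4 genes all encode 1 protein, the 10 H3 genes encode 2 proteins, and 7 of the 15 H2A genes share 1 protein. Among the 50-base stretches of each GENCODE transcript, the median share found in no other gene was 98.9% for H1 genes, 60.5% for H4, 56.2% for H2B, 42.8% for H3 and 35.2% for H2A. For H2bc18 and H3c13 the share was 0%, since another GENCODE model, Gm20628, contains both in full. Reads were aligned with TopHat2 at its default settings, but how reads that matched several places were counted is not given in the sources used here, so levels of single H2A, H2B, H3 and H4 genes are uncertain, and 27 of the 61 genes had fewer than 50% such stretches. No row of the tables overlapped a histone gene in its span, and 58 of the 61 genes had no intron in the tables.

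Midn, the targeted gene, had an RPKM of 60.5 in wt, 59.6 and 50.8 in the scr libraries, and 20.3, 21.8 and 22.1 in the knockdown libraries 25-3, 50-2 and 50-5, so the libraries matched their labels. RPKM is the number of reads divided by exon length and library size, as scaled by the authors. Total counts ran from 25586301 to 33119710 per library. The summed RPKM of 10 hepatocyte and hepatoma markers was 5027 in wt, 2951 and 3714 in the scr libraries, and 1012, 499 and 243 in the knockdown libraries, so the knockdown libraries held less of the hepatocyte programme; its part in the histone values was not tested. The summed level of 6 leukocyte markers was 0.847 in wt, 1.36 and 0.205 in the scr libraries, and 2.90, 3.3 and 4.94 in the knockdown libraries, mostly Csf1r, with Ptprc at most 0.16. That of 4 endothelial markers was 2.89 in wt, 0.163 and 0.173 in scr, and 0.371, 0.147 and 0.265 in knockdown. Most of it was Pecam1, at 2.85 in wt, and Cdh5 was at most 0.0318. That of 6 fibroblast and stellate markers was 1031 in wt, 594 and 562 in the scr libraries, and 576, 411 and 462 in the knockdown libraries. Nearly all of it was Dcn, with Col1a1, Col1a2, Col3a1 and Lum each at most 0.208, and Pdgfra at 1.93 in wt, 0.308 and 0.167 in the scr libraries, and 2.70, 1.898 and 1.58 in the knockdown libraries. That of 4 cholangiocyte markers ran from 34.4 to 57.1, with Krt19 at most 0.179. Its main members went opposite ways, with Krt7 at 30.6 in wt, 21.3 and 13.9 in the scr libraries, and 0.858, 1.89 and 2.15 in the knockdown libraries, and Sox9 at 17.6 in wt, 33.7 and 20.2 in the scr libraries, and 34.3, 46.6 and 31.2 in the knockdown libraries.

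Histone mRNA was plentiful in all 6 libraries and was led by few genes. The 61 genes took 0.336% of all counts in wt, 0.206% and 0.220% in the scr libraries, and 0.199%, 0.163% and 0.210% in knockdown 25-3, 50-2 and 50-5. The mean RPKM over the 6 libraries ran from 0.0255 to 510 with a median of 32.6. The 10 highest genes (H2bc18, H4c3, H1f2, H4c4, H1f4, H4c9, H4c14, H1f5, H1f3 and H4c8) held 61.6% of the summed RPKM. H4 genes made up 36.0% to 40.5% of the summed histone RPKM, depending on the library, and H2B genes 20.9% to 27.5%. H1 genes made up 19.1% to 25.4%, H2A genes 9.86% to 11.2% and H3 genes 5.57% to 7.28%.

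**Figure D1:**
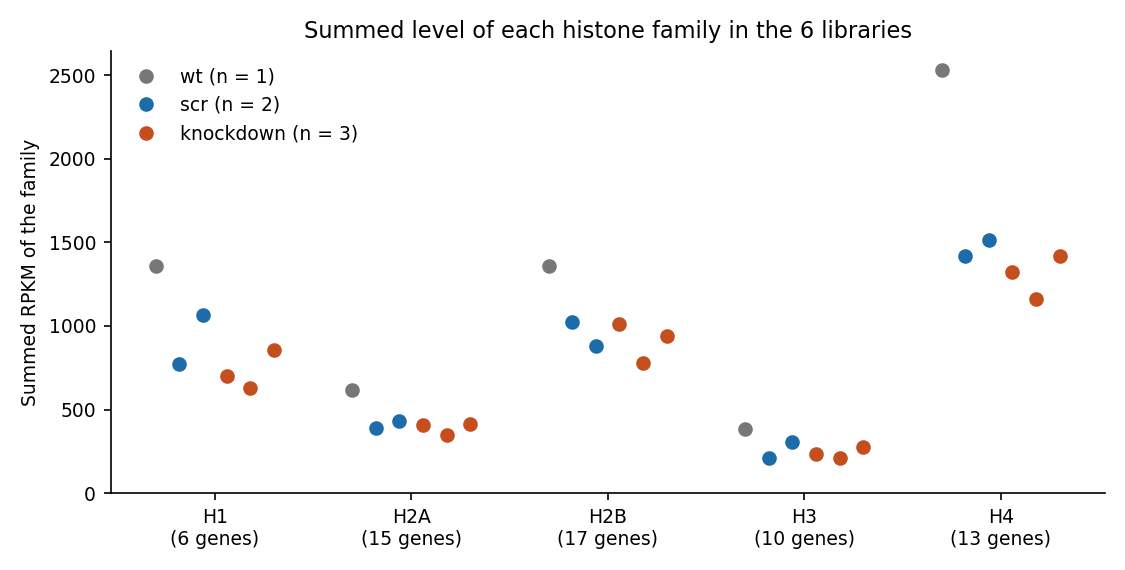
Summed RPKM of the genes of each histone family (y axis, linear from 0) in each library, 1 point per library, with wt in grey, scr in blue and knockdown in orange. In all 5 families the wt point is the highest, and the scr and knockdown points overlap in range except for H4, where the knockdown points lie between 1163 and 1416 and the scr points at 1420 and 1516.

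The comparison of knockdown with scr asks whether loss of midnolin changed histone mRNA. One gene, the linker histone H1f1, rose, and none fell. Of the 61 genes, 53 had an RPKM over 1 in at least 1 library and were tested among 11647 genes with edgeR's quasi-likelihood test. A gene was called at a false discovery rate (FDR, Benjamini-Hochberg adjusted p) under 0.05 and a fold change of at least 1.5. Among the 53 genes 1 was called higher, where 5.33% of all genes tested were, and 0 were called lower, where 5.25% of all genes were. An unadjusted p under 0.05 was reached by that 1 gene of the 53, against 31.4% of all genes. By DESeq2, which called 9.93% of all genes higher and 9.89% lower, the same gene was the only one of the 53 called, and 3 of the 53 had an unadjusted p under 0.05, against 34.2% of all genes. On chromosome 13, where 43 of the 53 lie, edgeR called 22 of the 416 other tested genes higher and 8 lower. Of those 416 genes 24.3% had an unadjusted p under 0.05 by edgeR.

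H1f1 (Hist1h1a, chr13:23763668-23764412, plus strand, a single exon) encodes the linker histone subtype H1.1. It had 59 counts in wt, 13 and 31 in the scr libraries 25-2 and 50-1, and 247, 161 and 188 in knockdown 25-3, 50-2 and 50-5. The corresponding RPKM was 3.04 in wt, 0.593 and 1.46 in the scr libraries (mean 1.03 ± 0.614, SD, n = 2), and 10.5, 6.69 and 7.63 in knockdown (mean 8.27 ± 1.98, SD, n = 3). All 3 knockdown libraries lay above wt, and wt lay above both scr libraries. The log2 fold change from scr to knockdown was 3.00 (SE 0.501, FDR 0.0241 by the edgeR test). It was 3.78 without scr 50-1 and 2.5 without scr 25-2. With wt added to the controls the log2 fold change was 2.29 (FDR 0.0355). Leaving out any 1 knockdown library ended the call, with an FDR of 0.0868 without knockdown 25-3, 0.0867 without 50-2 and 0.0770 without 50-5, at log2 fold changes of 2.79, 3.14 and 3.05. Knockdown 50-5 is the library absent from the study's list, so H1f1 was not called with the study's knockdown libraries alone. Over the 16 alternatives the FDR of H1f1 ran from 1.48e-06 (DESeq2) to 0.0868. All 50-base stretches of H1f1 (100%) were found in no other GENCODE gene model; the rest of the genome was not searched.

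H1f1 remained a minor linker histone gene. It made up 0.0766% and 0.137% of the summed H1 RPKM in the scr libraries, and 1.496%, 1.06% and 0.892% in knockdown 25-3, 50-2 and 50-5. H1f2, the highest H1 gene, had an RPKM of 472 in wt, 254 and 308 in the scr libraries, and 192, 190 and 250 in the knockdown libraries, so the knockdown range ended just under the scr range. Its log2 fold change was -0.43 (SE 0.181, FDR 0.176). H1f4 had 316 in wt, 205 and 288 in the scr libraries, and 182, 160 and 240 in the knockdown libraries, and H1f5 had 280 in wt, 146 and 242 in the scr libraries, and 167, 157 and 190 in the knockdown libraries. In both genes the knockdown and scr ranges overlapped, with log2 fold changes of -0.36 (SE 0.237, FDR 0.355) and -0.19 (SE 0.234, FDR 0.627). Without scr 50-1 these were -0.09 and 0.22. H1f6, the testis-specific linker histone H1t, had 2 to 12 counts per library and was not tested. H1f0, the linker histone gene of cells that have stopped dividing, differed by 0.09 on the log2 scale (FDR 0.809).

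**Figure D2:**
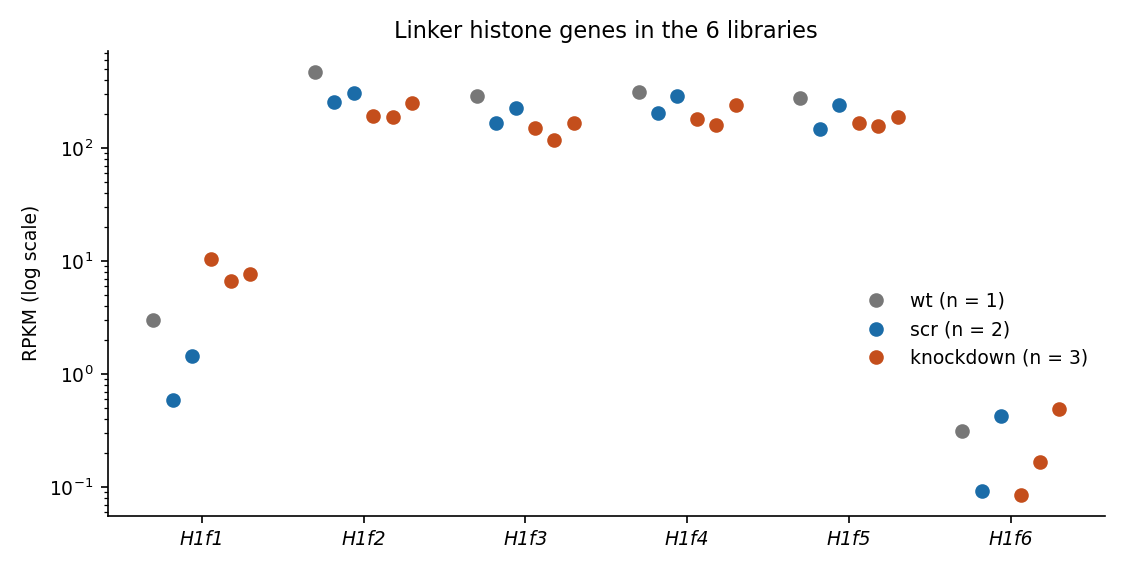
RPKM of the 6 linker histone genes (y axis, log scale) in each library, 1 point per library, with wt in grey, scr in blue and knockdown in orange. The H1f1 points of knockdown lie between 6.69 and 10.5 and those of scr at 0.593 and 1.46, whereas H1f2 to H1f5 lie above 100 in every library.

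The promoter windows of 3 H1 genes are shown because H1f1 parted from its family in these data. The windows run from 250 bases before the annotated start to 50 after it (RefSeq, GRCm38.p6), and 54 of the 61 genes had one. The motifs searched on both strands, in capitals, were the TATA box (TATAAA), the CCAAT box (CCAAT), the octamer bound by Oct-1 (ATTTGCAT) and the H1 box (AAACACA), and no match of one overlapped another in these windows. H1f1 lies at chr13:23763418-23763717 on the plus strand, with CCAAT 56 and TATAAA 33 bases before the start. H1f2 lies at chr13:23738557-23738856 on the plus strand, with AAACACA at 112 and CCAAT at 54 bases. H1f4 lies at chr13:23622509-23622808 on the minus strand, with AAACACA at 115, CCAAT at 52 and TATAAA at 27 bases.
H1f1: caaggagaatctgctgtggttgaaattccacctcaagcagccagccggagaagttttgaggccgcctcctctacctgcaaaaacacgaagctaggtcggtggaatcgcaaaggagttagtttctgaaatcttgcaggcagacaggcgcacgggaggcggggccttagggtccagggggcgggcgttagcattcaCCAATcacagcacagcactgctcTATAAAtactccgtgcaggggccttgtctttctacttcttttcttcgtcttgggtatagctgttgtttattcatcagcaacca
H1f2: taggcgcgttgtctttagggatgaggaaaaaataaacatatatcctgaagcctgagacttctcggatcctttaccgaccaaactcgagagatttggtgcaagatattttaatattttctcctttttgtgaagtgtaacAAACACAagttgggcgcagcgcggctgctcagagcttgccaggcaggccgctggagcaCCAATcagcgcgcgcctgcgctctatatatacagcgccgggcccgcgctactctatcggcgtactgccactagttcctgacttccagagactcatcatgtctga
H1f4: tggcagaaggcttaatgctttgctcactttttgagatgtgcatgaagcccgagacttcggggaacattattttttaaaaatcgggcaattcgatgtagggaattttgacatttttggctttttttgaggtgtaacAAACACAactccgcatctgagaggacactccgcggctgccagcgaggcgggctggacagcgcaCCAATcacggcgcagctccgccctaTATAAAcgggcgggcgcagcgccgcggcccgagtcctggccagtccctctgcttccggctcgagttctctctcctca

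The letters AAACACA were in the windows of 5 of the 6 H1 genes, all but H1f1, and in those of 8.22% of all 27025 genes with a window. CCAAT was in all 6 H1, all 14 H2A, all 14 H2B and all 8 H3 windows, in 3 of 12 H4 windows, and in 41.1% of all genes. The octamer was in 7 of 14 H2A and 7 of 14 H2B windows, in 0 of the H1, H3 and H4 windows and in 1.97% of all genes. TATAAA was in 34 of the 54 histone windows and in 15.7% of all genes. These matches describe the letters of the windows and were not related to binding in these cells.

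Apart from H1f1, the histone genes stayed within a narrow range between knockdown and scr. Their log2 fold changes ran from -0.66 (H2ac21) to 0.38 (H2bc8), the lowest FDR was 0.176, and 51 of the 53 genes tested were within 1.5-fold. The lowest value rests on 1 library, since H2ac21 had 13.6 RPKM in scr 25-2 and 4.49 in scr 50-1, and its log2 fold change was 0.37 without the former and -1.24 without the latter. The median over the 53 was -0.07, with 19 higher and 34 lower, beside -0.01 over all 11647 genes, with 5718 higher and 5927 lower. All 3 knockdown libraries lay above both scr libraries in 3 of the 53 genes (H1f1, H2bc21 and H4c11), a pattern that 25.6% of all genes tested had, and below both in 5 (H1f2, H2bc3, H4c3, H4c4 and H4c6), where 24.5% of all genes did. These were 5.66% and 9.43% of the 53, both below the share of all genes. The 5 genes of the downward pattern all lie in the same stretch of chromosome 13 (chr13:23531044-23934913), as does H1f1, and that stretch holds 26 of the 53 genes tested.

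By family the medians were -0.36 for H1 (5 tested), -0.07 for H2A (12), 0.08 for H2B (16), -0.09 for H3 (9) and -0.05 for H4 (11). H4c3, the highest H4 gene, had an RPKM of 577 in wt, 335 and 347 in the scr libraries, and 238, 193 and 304 in the knockdown libraries 25-3, 50-2 and 50-5. The 3 knockdown libraries were the lowest of the 6, and the log2 fold change was -0.49 (SE 0.211, FDR 0.183). H4c4 had 423 in wt, 249 and 239 in the scr libraries, and 180, 138 and 237 in the knockdown libraries, with knockdown 50-5 at the scr level (log2 fold change -0.41, FDR 0.303). H4c9 had 357 in wt, 164 and 218 in the scr libraries, and 153, 193 and 211 in the knockdown libraries, and the scr and knockdown ranges overlapped. Summed over the 13 H4 genes, which encode 1 protein, the RPKM was 2530 in wt, 1420 and 1516 in the scr libraries, and 1321, 1163 and 1416 in the knockdown libraries. H4 was the only family in which every knockdown sum lay below both scr sums, by a narrow gap.

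Of the H2A genes, H2aw had 135 in wt, 112 and 122 in the scr libraries, and 121, 92.3 and 101 in the knockdown libraries. H2ac20 had 173 in wt, 112 and 91.1 in the scr libraries, and 111, 87.6 and 97.7 in the knockdown libraries, and H2ac6 had 69.6 in wt, 37.7 and 50.6 in the scr libraries, and 42.7, 32.5 and 53.9 in the knockdown libraries. The scr and knockdown ranges overlapped in all 3 genes, at log2 fold changes of -0.17, -0.05 and -0.05. Of the H2B genes, H2bc18, the highest of all 61, had 730 in wt, 644 and 368 in the scr libraries, and 570, 346 and 404 in the knockdown libraries. It alone held 51.1% of the summed H2B RPKM, and its scr libraries differed more from each other than the group means did. H2bc12 and H2bc11 had log2 fold changes of 0.19 and 0.27. The 3 highest H3 genes, H3c6, H3c1 and H3c11, had log2 fold changes of -0.34, 0.17 and -0.09, with an FDR of 0.40 or more each.

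The scr library used moved these values and often their direction. Of the 53 genes 14 were higher in knockdown without scr 25-2 (median -0.23) and 29 without scr 50-1 (median 0.07), and in such fits the lone scr library was assumed to vary like the other groups. Of the 16 genes above that are called or the 3 highest of a family, 8 (H1f5, H2ac20, H2ac6, H2bc12, H2bc18, H3c1, H3c11 and H4c9) turned sign without 1 of the scr libraries. H2bc18 went from 0.26 without 25-2 to -0.56 without 50-1, H2bc12 from -0.07 to 0.52, H3c1 from -0.13 to 0.56 and H3c11 from -0.35 to 0.25. H2bc11 ran from 0.06 to 0.52 and H3c6 from -0.56 to -0.08 with no change of sign.

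**Figure D3:**
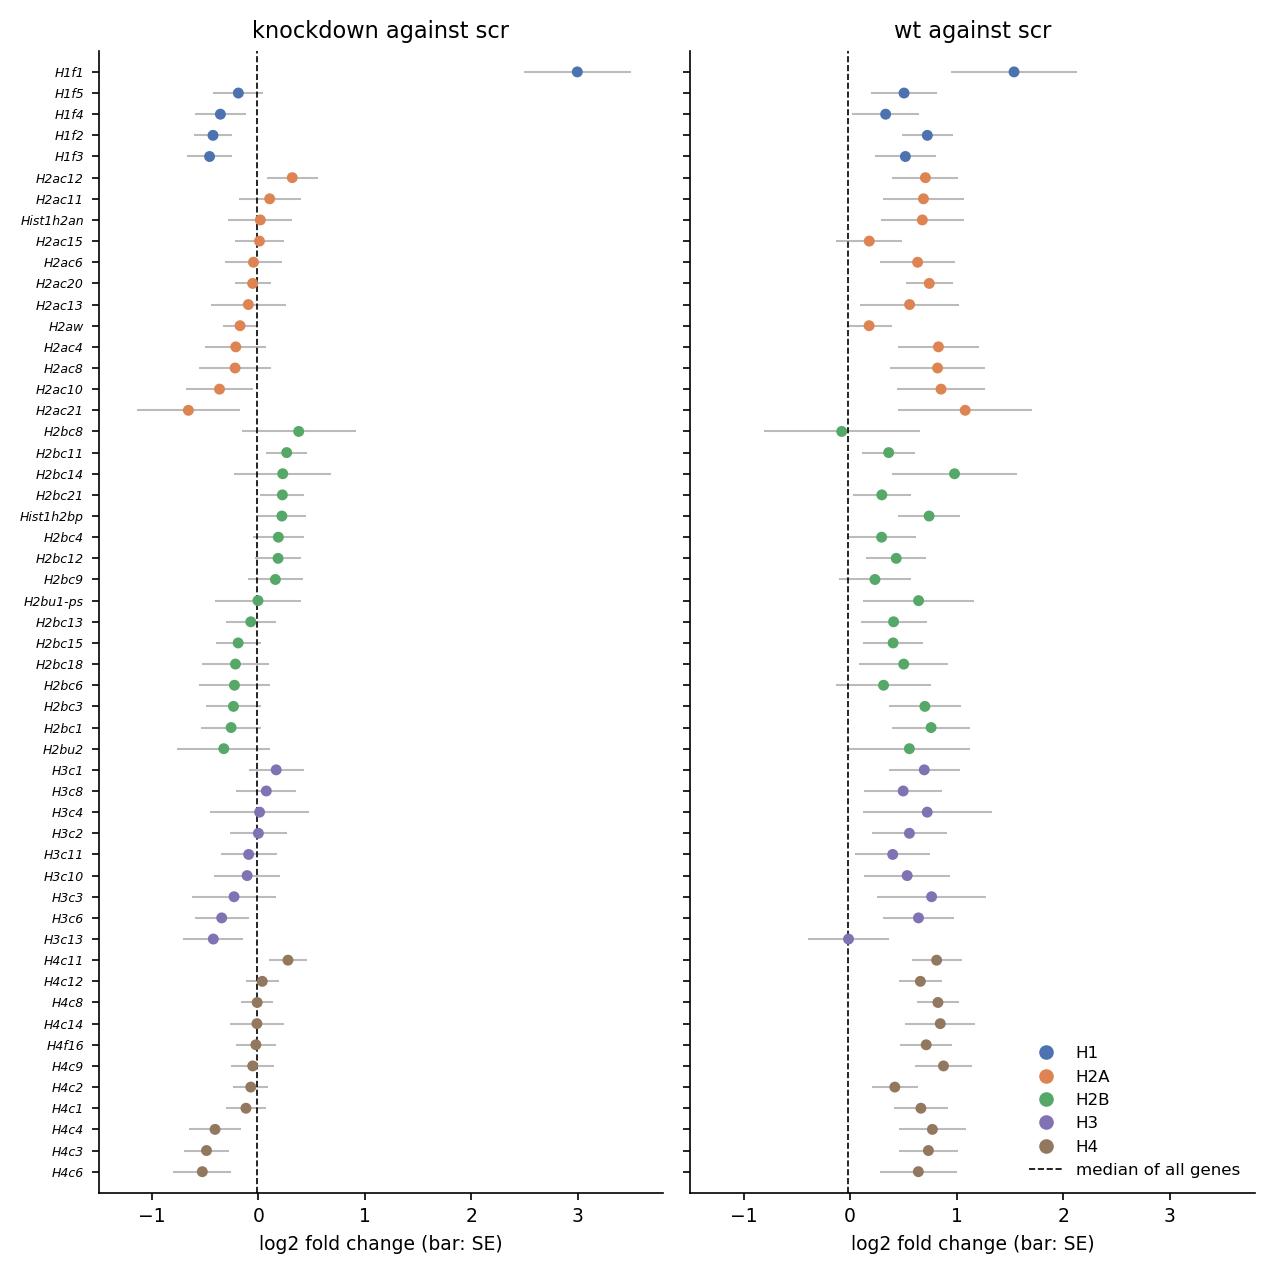
Log2 fold change (x axis, with SE as a bar) of the 53 histone genes tested, coloured by family, for knockdown against scr (left) and wt against scr (right); the dashed line is the median of all 11647 genes. On the left H1f1 stands at 3.00 and the others lie between -0.66 and 0.38, whereas on the right 51 of the 53 lie above 0.

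The other genes of the histone pathway were read from lists of known genes. Of 24 tested genes of histone mRNA transcription, processing and decay, 1 rose and 0 fell, where 5.33% and 5.25% of all genes did, and 6 (25%) had an unadjusted p under 0.05, where 31.4% of all genes did. The median log2 fold change was -0.06. Ncbp1, a subunit of the nuclear cap-binding complex, rose from 37.2 and 35.2 RPKM in scr to 74.0, 66.2 and 62.9 in the knockdown libraries (log2 fold change 0.89, SE 0.132, FDR 0.0177). Slbp had 19.0 in wt, 16.5 and 17.9 in the scr libraries, and 14.7, 13.8 and 12.7 in the knockdown libraries. The knockdown libraries lay below the others, but the difference of -0.34 (SE 0.137) had an FDR of 0.159. Npat had 12.5 in wt, 13.9 and 12.9 in the scr libraries, and 14.9, 13.3 and 14.3 in the knockdown libraries (log2 fold change 0.07, FDR 0.740).

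Of 24 histone chaperone and assembly genes 0 were called by edgeR, 6 (25%) had an unadjusted p under 0.05, and the median was -0.15. By DESeq2, which called 9.89% of all genes lower, one of them, Chaf1b, a subunit of chromatin assembly factor 1, was called (log2 fold change -0.64, FDR 0.0402, beside 0.0947 by edgeR). Of 10 tested genes for histone variants outside the Hist1h to Hist4h series, 0 were called by edgeR or by DESeq2. By each, 1 of them had an unadjusted p under 0.05, and the median was -0.03. Their widest difference was that of H1f10, the linker histone H1.10, with an RPKM of 15.96 in wt, 11.6 in scr library 25-2, 0.0331 in scr library 50-1, and 34.3, 36.5 and 23.8 in the knockdown libraries (log2 fold change 2.41, SE 1.43, FDR 0.303). All 3 knockdown libraries lay above the others, but the scr libraries lay far apart. Without scr 50-1 the log2 fold change was 1.43 (SE 0.307, FDR 0.0460). No fold is given without scr 25-2, since scr 50-1 held 1 count of H1f10. Of 46 S phase genes 1 rose, 1 fell and 12 (26.1%) had an unadjusted p under 0.05, with a median of 0.06. In each of these lists the share at an unadjusted p under 0.05 was below the 31.4% of all genes. By DESeq2 2 of the S phase genes (Pola2 and Mcm2) were called higher, 1 (Cdk2) lower, and 15 (32.6%) had an unadjusted p under 0.05, beside 34.2% of all genes. Pola2, a subunit of DNA polymerase alpha, rose from 16.4 and 10.9 RPKM in scr to 34.96, 26.4 and 28.2 in the knockdown libraries, beside 19.95 in wt (log2 fold change 1.12, SE 0.236, FDR 0.0412). Cdk2, the S phase kinase that phosphorylates NPAT, fell from 47.0 and 41.9 in scr to 27.4, 25.8 and 27.4 in the knockdown libraries, beside 43.8 in wt (log2 fold change -0.74, SE 0.124, FDR 0.0242). The call of Ncbp1, Pola2 and Cdk2 was each lost without any 1 knockdown library, at an FDR between 0.0570 and 0.125, while the log2 fold changes stayed at 0.82 to 0.94, 0.99 to 1.21 and -0.76 to -0.70. That of Pola2 was also lost without scr 50-1 (log2 fold change 0.86, FDR 0.0653).

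The comparison of wt with scr sets 1 library of untreated cells beside cells taken through vector, selection and cloning. Differences between clones or between single cultures cannot be told apart from these steps. Histone genes were higher in wt in nearly every case, but no gene passed edgeR's test with 1 wt library. Among 11647 genes 0 (0%) were called higher and 0 (0%) lower by edgeR, in which the lone wt library was assumed to vary like the other groups, and 7.72% had an unadjusted p under 0.05. Of the 53 histone genes 12 had an unadjusted p under 0.05, all higher in wt, and 8 of these were H4 genes. DESeq2 called 0.61% of all genes higher, among them 1 histone gene, H4c8 (log2 fold change 0.83, SE 0.240, FDR 0.0474, beside 0.612 by edgeR and up to 0.923 over the alternatives), with 242 RPKM in wt and 138 and 131 in scr. With 1 wt library, DESeq2 too took the spread from the other groups. The median log2 difference over the 53 was 0.64 by edgeR, beside -0.02 over all genes, with 51 higher and 2 lower. A difference of at least 1.5-fold upward was seen in 30 of the 53 genes (56.6%) and in 9.45% of all genes.

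The wt library was the highest of the 6 in 46 of the 53 genes tested, a pattern that 17.9% of all genes had. It was the lowest in 0, where 14.8% of all genes had it lowest. Against the scr libraries alone, wt lay above both in 49 of the 53 genes, as in 33.6% of all genes, and below both in 1, as in 29.1% of all genes. The genes in which wt was not the highest included H1f1 and H3c13, the latter with 31.9 in wt against 33.4 and 29.9 in scr. By family the median log2 difference was 0.73 for H4, 0.70 for H2A, 0.56 for H3, 0.52 for H1 and 0.42 for H2B. The ratio of the summed RPKM of wt to the scr mean was 1.72 for H4, 1.498 for H2A, 1.48 for H1, 1.47 for H3 and 1.42 for H2B. Among the 31 genes tested with at least 50% stretches of their own the median was 0.70, and among the other 22 it was 0.55.

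The related gene lists were also compared between wt and scr. The 10 histone variant genes tested had a median log2 difference of 0.28, with 9 of 10 higher in wt. The S phase list had a median of 0.09, with 32 of 46 genes higher, the histone processing list -0.12, with 8 of 24 higher, and the chaperone list -0.06, with 10 of 24 higher. Slbp differed by 0.12 (SE 0.184) and Npat by -0.12 (SE 0.169). Short genes as a class were also somewhat higher in wt. For the 1166 tested genes under 1000 bases that are not histone genes the median was 0.15, with 719 higher and 440 lower, and for the 10428 longer genes it was -0.04. The wt library also had the highest summed level of the hepatocyte and hepatoma markers (5027 RPKM) and of the fibroblast and stellate markers (1031, nearly all Dcn). It was also highest in the endothelial markers (2.89, nearly all Pecam1). The parts of transcript length and of these markers in the histone difference were not tested.

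Levels of histone genes also differed between libraries of the same group, and in some pairs, not in others, the other genes of the same chromosome differed likewise. Between the 2 scr libraries, 40 of 43 tested histone genes on chromosome 13 were higher in 50-1 and 0 of 6 on chromosome 3 were. The median log2 ratio of 50-1 to 25-2 was 0.45 for the former and -0.34 for the latter, computed on RPKM + 0.1. H1f5 had 146 in 25-2 and 242 in 50-1, whereas H2bc18 had 644 and 368 and H2ac21 had 13.6 and 4.49. Genes of these chromosomes that are not histone genes had similar medians in this pair. On chromosome 13 the median over the 416 other tested genes was 0.51, with 346 higher in 50-1, and on chromosome 3 the 565 others had -0.33, with 136 higher. This did not hold elsewhere, since the 3 histone genes of chromosome 11 had a median of -0.39 beside 0.06 for the other genes there, and the 1 gene of chromosome 6 had 0.17 beside -0.15. Over all 20 chromosomes (1 to 19 and X) these medians ran from -0.36 on chromosome 10 to 0.62 on X.

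Relative to the median of the other genes of their chromosome, the histone genes of the scr pair were centred near 0. The median over the 53 genes went from 0.39 to -0.04, with 21 higher and 32 lower. Between knockdown libraries the histone genes followed their chromosome in part. The 43 histone genes of chromosome 13 had a median log2 ratio of -0.30 in knockdown 25-3 over 50-5 beside -0.34 for the other genes of that chromosome, the lowest of the 20 chromosome medians. In the same pair the 6 histone genes of chromosome 3 were all higher in 25-3, with a median of 0.34 beside 0.01 for the other genes, as were the 3 of chromosome 11, with 0.72 beside -0.0062. Relative to their chromosome, the median over the 53 was 0.07. In the pairs with 50-2 the histone genes of chromosome 13 parted from the other genes there, with a median of 0.03 beside -0.32 in 25-3 over 50-2, and of 0.27 beside 0.04 in 50-5 over 50-2. Within chromosome 13 the stretches differed. In 25-3 over 50-2, chr13:21715711-22043658 had a median of -0.18 (2 of 17 higher) and chr13:23531044-23934913 had 0.29 (21 of 26 higher). In 50-5 over 50-2 these stretches had 0.13 and 0.59. Relative to the chromosome, knockdown 50-2 was lower in histone genes than the other knockdown libraries, with a median of 0.18 for 50-5 over 50-2 and 0.36 for 25-3 over 50-2. These ratios are descriptions of pairs of libraries, and the number of copies of a chromosome was not measured.

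The comparisons between groups were also read relative to the chromosome, a choice made after seeing the data. From scr to knockdown the other genes of chromosome 13 had a median of 0.09, and the median of the 53 histone genes went from -0.07 to -0.16 relative to their chromosomes, with 15 of 53 higher. Over the 20 chromosomes the medians of the other genes ran from -0.47 (chromosome 16) to 0.35 (chromosome 6) in this comparison. The genes of the other lists were not read relative to their chromosomes. From scr to wt the other genes of chromosome 13 had a median of 0.19, and the histone median went from 0.64 to 0.47, with 50 of 53 higher. The higher level in wt was seen on chromosome 3 (median 0.62, 6 genes), on chromosome 11 (0.56, 3 genes) and on chromosome 13 (0.66, 43 genes). The wt contrast and the knockdown contrast share the scr libraries and are not independent.

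**Figure D4:**
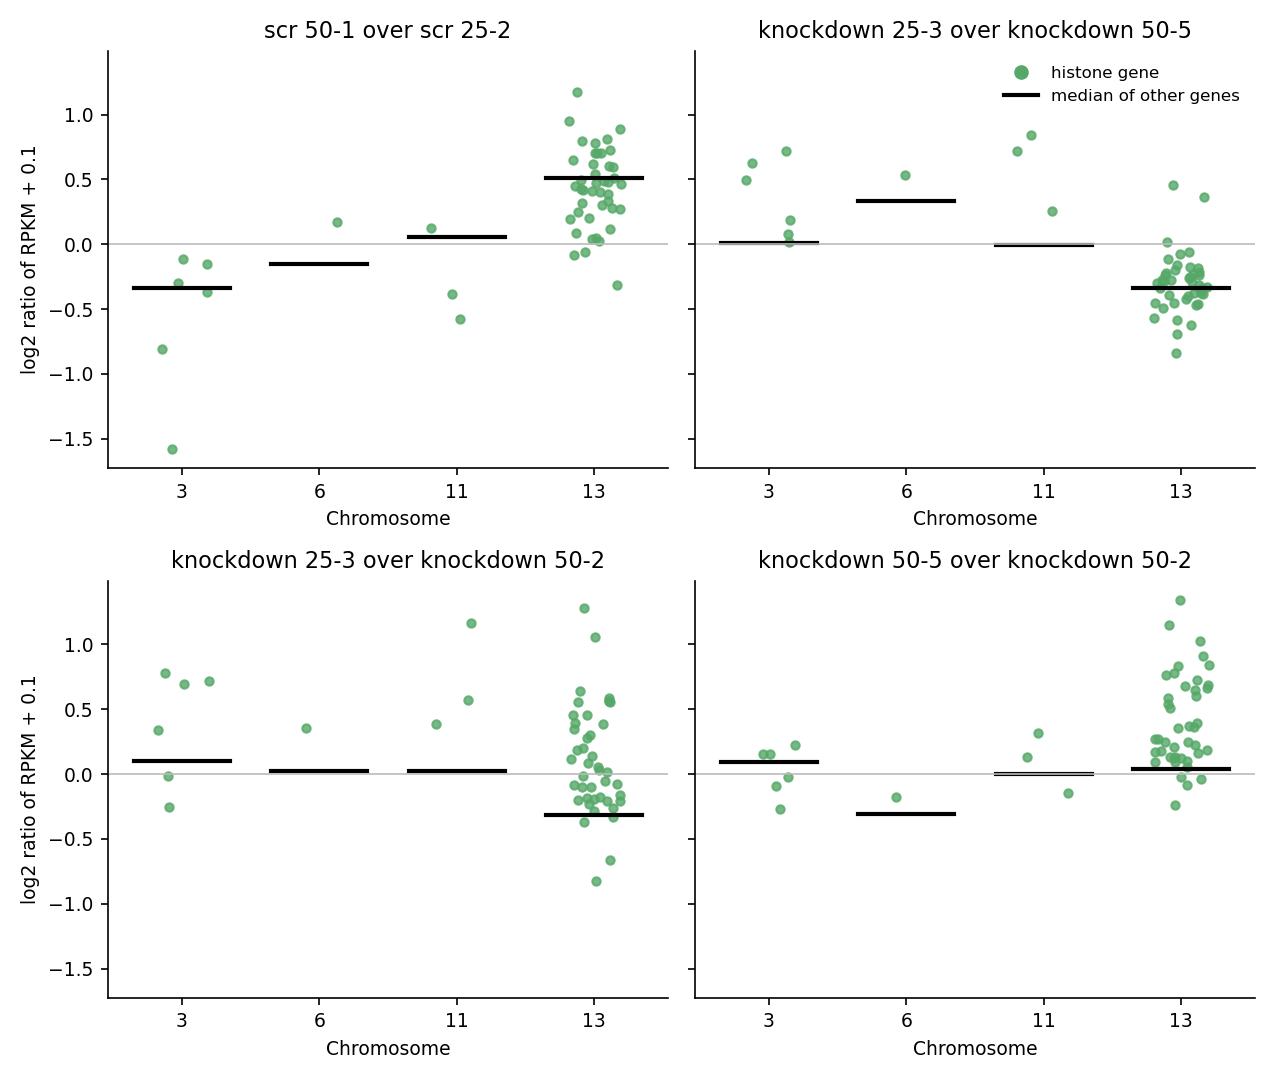
Log2 ratio of RPKM + 0.1 between libraries of the same group (y axis) for each tested histone gene, by chromosome (x axis), for the scr pair and the 3 pairs of knockdown libraries; black lines are medians of the other tested genes of that chromosome. On chromosome 13 the histone genes scatter around the line of the other genes in the upper panels, at 0.51 and -0.34, and lie mostly above it in the lower panels, at -0.32 and 0.04.

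Many H2A and H2B genes start back to back from a shared promoter, and 11 such pairs, with starts 164 to 281 bases apart, could be compared within each library. The H2B gene was the higher in all 6 libraries in 7 pairs and the H2A gene in 3. The widest gap was that of H2bc1 and H2ac1, whose starts are 281 bases apart. H2bc1 is the H2B gene known from testis, and H2ac1 is its H2A partner there. H2bc1 had an RPKM of 99.2 in wt, 51.3 and 63.9 in the scr libraries, and 50.9, 33.9 and 60.7 in the knockdown libraries, while H2ac1 had 3 to 6 counts per library, or 0.199 to 0.427 RPKM. H2bc1 differed by -0.26 from scr to knockdown (SE 0.278, FDR 0.572). Of the 50-base stretches of H2bc1, 61.8% were found in no other gene and 38.2% also in H2bc11.

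The promoter window of H2bc1 is printed because the levels of the pair differ so widely. It begins just short of the H2ac1 start, covers most of the stretch between the starts and ends inside H2bc1, and lies at chr13:23934107-23934406 on the minus strand (RefSeq, GRCm38.p6). In capitals are CCAAT 195, 138 and 108 bases before the H2bc1 start and on the other strand at 219, the octamer ATTTGCAT at 164, TATAAA at 94, and the H1 box letters on the other strand at 61.
H2bc1: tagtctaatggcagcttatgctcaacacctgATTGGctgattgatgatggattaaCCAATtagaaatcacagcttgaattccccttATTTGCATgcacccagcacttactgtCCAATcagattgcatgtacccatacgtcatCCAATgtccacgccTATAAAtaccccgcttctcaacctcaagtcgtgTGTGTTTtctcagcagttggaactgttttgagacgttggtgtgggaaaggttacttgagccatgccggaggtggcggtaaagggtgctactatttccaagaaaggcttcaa

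Other pairs were uneven in the opposite direction or nearly even. H2ac20 had a mean RPKM of 112 over the 6 libraries and its neighbour H2bc21 4.47, and H2aw had 114 beside 3.14 of the pseudogene H2bu1-ps. H2ac6 and H2bc4 were close, at 47.8 and 53.8, with H2bc4 higher in 5 of the 6 libraries. H2ac7 and H2bc7 were both low, with 0 to 3 and 7 to 14 counts. The pairs share sequence with other copies, so their ratios carry the uncertainty of the counting.

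**Figure D5:**
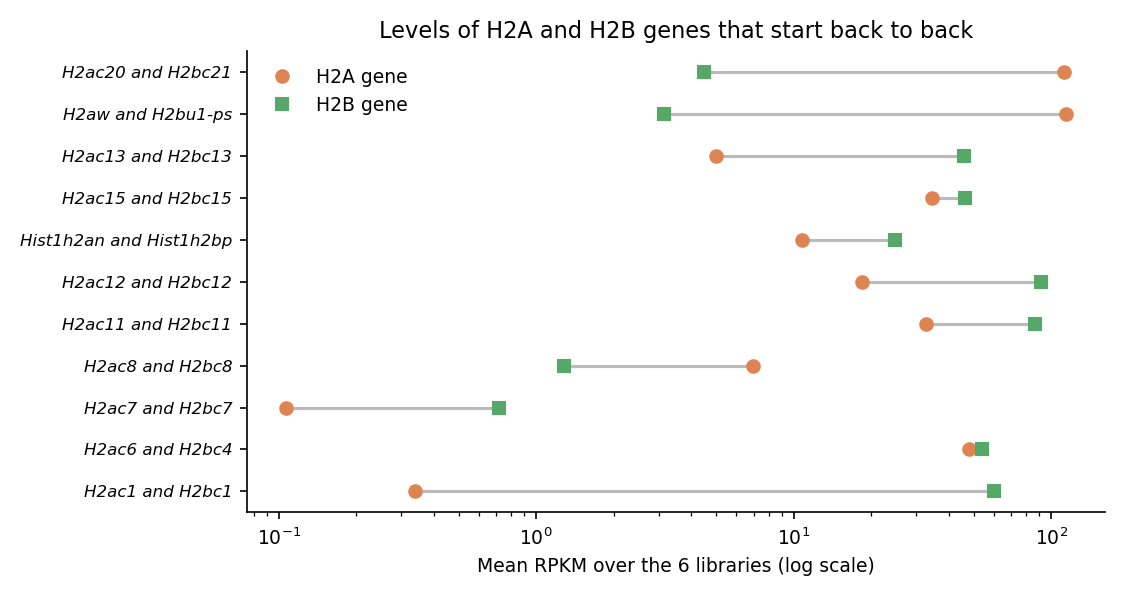
Mean RPKM over the 6 libraries (x axis, log scale) of the H2A gene (orange circle) and the H2B gene (green square) of 11 pairs that start back to back. The H2A and H2B points of H2ac1 and H2bc1 are the farthest apart, at 0.340 and 60.0.

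The 8 genes that did not pass the RPKM filter were Hist1h4m, Hist1h4n, H3c7, H2bc7, H2ac7, H1f6, H2ac1 and Hist1h2al. Hist1h4m and Hist1h4n had at most 1 and 2 counts in a library, H3c7 had 2 to 4 and Hist1h2al 8 to 22. Hist1h4m shares 89.8% and H2ac7 59.5% of its 50-base stretches with 1 other gene. H3c7 shares 41.0% with H3c6, which had an RPKM of 37.0 to 94.0.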

How the data were processed

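RNA-seq was done on 6 Hepa1-6 libraries after ribosomal RNA depletion. The authors aligned reads to mm10 with TopHat2 at its default settings, counted them per RefSeq gene with HTSeq (0.6.1p1 in the submitters' notes) and deposited raw counts. The authors also deposited RPKM, which equals the count per kilobase of exon divided by 1 constant per library. The counting options for strand and for multiply matching reads are not given in the sources used here. No library column was left unmatched (0).

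Counts were tested with edgeR 4.0.16 in R 4.3.3 (quasi-likelihood, TMM, all 6 libraries in 1 fit of 3 groups) on genes above an RPKM of 1 in 1 or more libraries. The fit was checked on simulated counts. The common biological coefficient of variation was 0.272. Total counts were 25586301 to 33119710, so counting error was small for all but genes with few counts. Alternatives used DESeq2 1.42.0, limma 3.58.1, other filters and scales, and each library left out.

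Members and gene lists were chosen with earlier results of these data known. The genes named were those called, the 3 highest of each family by mean RPKM, Midn, Slbp, Npat and the 2 called genes of each list with the largest change in each direction. Other named genes were chosen after their values were seen. Sequences came from GENCODE M21 transcripts and RefSeq promoter windows (GRCm38.p6). Python 3.11.15, pandas 2.3.3 and matplotlib 3.10.9 handled tables and figures.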

Additional observations from a re-analysis of the deposited data

How the results depend on the processing

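In the comparison of knockdown with scr, 1 histone gene (H1f1) was called in 13 of the 16 alternatives. One of these, library sizes without Rn45s, returned the reported values, since the TMM factors offset the change in library size, and is no separate check. The count ranged from 0 to 1 when each library was left out in turn, and was 0 without any 1 knockdown library. The median log2 fold change of the histone genes ranged from -0.30, with wt added to the controls, to 0.07, without scr 50-1, so its sign changed. In the comparison of wt with scr, 0 histone genes were called in 12 of the 13 alternatives, 0 to 0 when each library was left out, and 1 by DESeq2. The median stayed between 0.50 and 0.77. Over all genes DESeq2 called 1156 higher and 1152 lower from scr to knockdown, beside 621 and 612 by edgeR, and without knockdown 50-2 there were 79 and 39. With the first label number (25 or 50) as a replicate block and wt left out, 419 genes were called higher and 388 lower, and H1f1 stayed called (FDR 0.0494). These numbers are not explained by the labels, and libraries that share one did not deviate together (Pearson's r 0.0102 across 11647 genes, which are not independent, for 50 over 25 in scr against knockdown). The median SE of a single histone gene was 0.257 from scr to knockdown and 0.335 from scr to wt, on the log2 scale, which bounds the differences these libraries can show. Wt was the highest library in the sum of each family by RPKM, by counts scaled to the library total with or without Rn45s, and by RPKM over the genes with at least 50% stretches of their own, among which are all H1 genes. The values relative to the chromosome were chosen after seeing the data.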
